A study of Mus musculus with 72 samples.

Results

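Lead (Pb) enters cells and binds proteins at sites made for calcium. The 7 genes described here were grouped as targets of this calcium mimicry. They are the plasma membrane calcium pumps Atp2b1 and Atp2b4, the protein kinase C isoforms Prkca, Prkcb and Prkcd, and the calmodulin genes Calm2 and Calm3. Among them, Prkcd encodes an isoform that does not need calcium. Each gene was represented by the probe sets annotated to its symbol alone, and the brightest of them on average over the 72 arrays stood for the gene. Of the 7 genes, 5 had such a probe set, out of 18194 genes with at least 1, and they had 12 of the 45101 probe sets. Calm2 and Calm3 had none under this rule and are not analysed here. Of the 12 probe sets, 10 passed the filter on dim signal, which left 4 genes tested among 12589.

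Whole blood came from female Balb/c mice, 9 weeks of age when assigned to a dose. Their drinking water held lead acetate trihydrate at 0, 5 or 50 µg/mL (control, low dose and high dose) during an exposure of 2 weeks, which was followed by a recovery of 2 weeks on lead-free water. The recovery collection has 7 control, 15 low-dose and 13 high-dose arrays, and the collection at the end of the exposure has 7 control, 15 low-dose and 15 high-dose arrays. All samples were taken by submandibular bleed, stabilised, and depleted of globin transcripts before labelling. According to the labels, every lead-exposed mouse gave blood at the first collection, whereas of the control mice some were bled then. The labels neither link the arrays of a mouse nor say whether the recovery controls had been bled before, so p-values measure the spread between arrays treated as independent.

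Calcium ATPases of the plasma membrane pump calcium out of the cell and are activated by calmodulin, the small calcium sensor that also switches on kinases and the phosphatase calcineurin. Protein kinase C alpha and beta, encoded by Prkca and Prkcb, are conventional isoforms that need calcium and diacylglycerol, and lead can replace calcium in activating such isoforms in the test tube. Protein kinase C delta, encoded by Prkcd, answers to diacylglycerol without calcium, so the name calcium-dependent does not hold for it. In blood, protein kinase C beta is known from B cell receptor signalling, protein kinase C alpha from platelet activation and protein kinase C delta from myeloid cells and B cell tolerance.

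The promoters of the 3 kinase genes are shown because Prkcb and Prkcd had dose differences of the opposite sign to that of Prkca. By its brightest probe set, the Prkca difference between high and low dose after exposure did not pass (limma, adjusted p = 0.140). Each sequence holds the 250 bases before a transcription start in RefSeq's table on the GRCm38.p6 assembly, 5′ to 3′ on the gene's strand. Capitals mark GC boxes (GGGCGG, or CCGCCC on the other strand) and, in Prkcd, an E-box (CACGTG) that overlaps the first GC box.
Prkca, chr11:108343889-108344138, minus strand: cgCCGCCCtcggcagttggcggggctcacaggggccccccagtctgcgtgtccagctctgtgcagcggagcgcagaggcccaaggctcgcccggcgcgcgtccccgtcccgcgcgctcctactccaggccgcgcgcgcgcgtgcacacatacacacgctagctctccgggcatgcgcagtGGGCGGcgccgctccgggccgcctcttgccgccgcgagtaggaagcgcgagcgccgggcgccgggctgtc
Prkcb, chr7:122288875-122289124, plus strand: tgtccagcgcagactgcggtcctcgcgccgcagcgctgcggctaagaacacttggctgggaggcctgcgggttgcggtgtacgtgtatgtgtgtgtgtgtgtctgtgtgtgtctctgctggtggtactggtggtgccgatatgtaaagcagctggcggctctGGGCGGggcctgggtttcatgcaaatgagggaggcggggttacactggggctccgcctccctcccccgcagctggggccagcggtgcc
Prkcd, chr14:30626209-30626458, minus strand: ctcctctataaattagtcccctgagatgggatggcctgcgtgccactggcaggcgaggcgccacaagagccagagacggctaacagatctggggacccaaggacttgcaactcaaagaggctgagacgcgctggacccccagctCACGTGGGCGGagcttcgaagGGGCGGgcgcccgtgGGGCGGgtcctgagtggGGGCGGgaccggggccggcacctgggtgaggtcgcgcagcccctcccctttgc

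The GC box was found 2 times in the Prkca window, 1 time in that of Prkcb and 4 times in those of Prkcd and Atp2b1, and 32.7% of the 32851 promoters in the table hold at least 1. Neither the cyclic AMP response element TGACGTCA (1.55% of promoters) nor CCAAT (33.8%) was found in the windows of the 4 tested genes on either strand. The core of the motif bound by NFAT, GGAAA, occurred 1 time in the Atp2b1 window and not in those of the 3 kinases, against 55.6% of all promoters. The E-box of Prkcd is found in 6.02% of promoters. The windows of Atp2b1, Prkca, Prkcb and Prkcd held 78.4, 76.8, 65.2 and 67.6% G and C, against a median of 52.4% over all promoters. The table's start for Atp2b4 lies 47312 bases inside the annotated gene, so that window was not read as its promoter. The start used for Prkcd lies 206 bases inside its annotated gene, so most of the Prkcd window overlaps the gene. Prkcd and Atp2b1 have 2 starts each in the table, and the start nearest the gene's annotated 5′ end was used.

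The arrays resembled each other closely, with pairwise correlations over all probe sets between 0.958 and 0.995, array medians between 4.05 and 4.22 on the log2 scale and 0 identical pairs. The mean of 11 B cell markers lay between 7.29 and 9.71 and that of 6 tested markers of facial skin, muscle and salivary gland between 4.31 and 4.72, close to the median of all values, 4.14. For 4 arrays (high-dose arrays 6 and 13 after exposure, low-dose array 4 and high-dose array 12 after recovery) the spread of probe sets around their medians was above 0.403, and results are given without them where that changed a call. In whole blood, fewer cells of a type and less RNA per cell cannot be told apart.

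**Figure D1:**
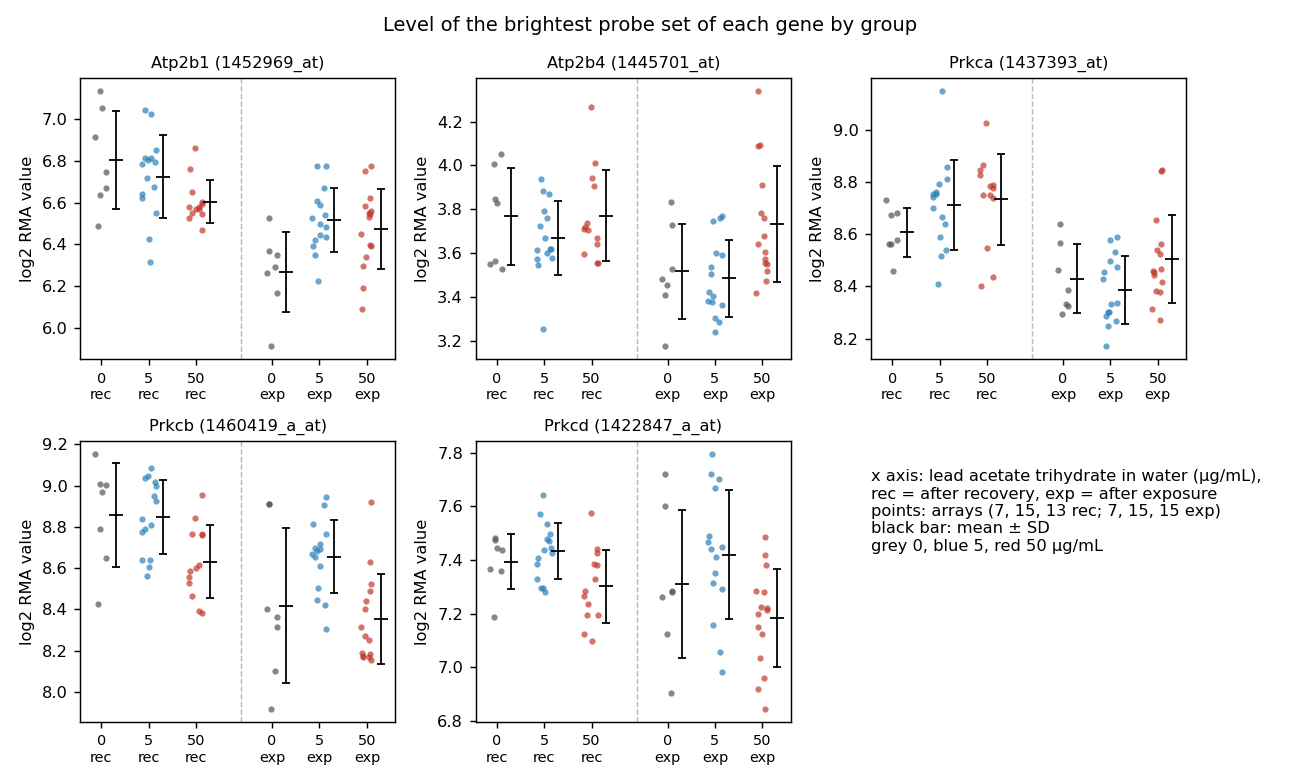
Deposited log2 value of the brightest probe set of each gene (vertical axes) in the 72 arrays, grouped by dose (0, 5 and 50 µg/mL) after recovery (left of the dashed line) and after exposure (right). Points are arrays and black bars are means ± SD. Prkcb lay lower in high-dose than in low-dose blood after exposure, and Atp2b1 was higher after recovery than after exposure in the controls.

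After the exposure, 0 of the 4 tested genes differed between high-dose mice and controls, and 0 differed between low-dose mice and controls. Prkcb and Prkcd were lower in high-dose than in low-dose blood. After recovery, 0 members differed between any 2 dose groups. By the brightest probe sets, Prkcb was higher after recovery than after exposure in all 3 dose groups and Prkca in both lead groups. Atp2b1 was higher in the low-dose and control groups. The further Prkca probe sets averaged lower after recovery in all 3 dose groups. All calls are limma tests over 12589 genes with Benjamini-Hochberg adjusted p under 0.05.

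Atp2b1 (chromosome 10, 98914630 to 99026143, GRCm38.p6) encodes the most widely expressed of the plasma membrane calcium pumps. After recovery, its lowest, median and highest log2 values were 6.49, 6.75 and 7.13 in controls, 6.31, 6.78 and 7.04 in low-dose mice and 6.47, 6.58 and 6.86 in high-dose mice. After exposure, they were 5.91, 6.29 and 6.53 in controls, 6.23, 6.50 and 6.78 in low-dose mice and 6.09, 6.53 and 6.77 in high-dose mice. The exposure controls were the group with the lowest mean and the recovery controls the group with the highest, while neighbouring groups overlapped throughout. High-dose mice averaged 6.47 ± 0.19 after exposure, against 6.27 ± 0.19 in controls (SD, n = 15 and 7). This difference of 0.20 ± 0.08 (SE) on the log2 scale did not pass the test (limma, adjusted p = 0.408). Low-dose mice averaged 6.52 ± 0.15 (n = 15), 0.25 ± 0.08 above the same controls (adjusted p = 0.113). After cyclic loess normalization both differences passed, at 0.24 (adjusted p = 0.0456) and 0.22 (adjusted p = 0.0352), and leaving out control array 1 of the exposure collection brought the low-dose difference to 0.29 (adjusted p = 0.0461). With marker means of 6 blood cell types as covariates, the high-dose difference was 0.25 (adjusted p = 0.0218) and the low-dose one 0.07 (adjusted p = 0.855).

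The dose differences of Atp2b1 had opposite signs at the 2 collections, and this change did not pass the test. After recovery, high-dose mice were at 6.60 ± 0.10 (n = 13), against 6.81 ± 0.23 in controls (n = 7), a difference of -0.20 ± 0.08 that did not pass (limma, adjusted p = 0.337). The high-dose difference after recovery minus that after exposure was -0.40 ± 0.12, with an unadjusted p of 0.000813 and an adjusted p of 0.853, and the low-dose one was -0.33 ± 0.11 (adjusted p = 0.199). Neither passed, and each rests on 7 control arrays at each collection. With array weights, which give less weight to noisier arrays, they were -0.47 (adjusted p = 0.0443) and -0.35 (adjusted p = 0.0243).

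Atp2b4 (chromosome 1, 133702674 to 133801059) encodes the calcium pump known from the red cell membrane. Its only probe set lay above the median of all values in 2 of 72 arrays and was left out of the tests by the filter. Its median log2 value was 3.83, 3.62 and 3.71 in control, low-dose and high-dose mice after recovery and 3.48, 3.42 and 3.64 after exposure. With no filter on dim signal, it was 0.25 ± 0.08 higher in high-dose than in low-dose mice after exposure (limma, adjusted p = 0.0219), at 3.73 ± 0.27 against 3.49 ± 0.17 (SD, n = 15 each), and 5 of 15 high-dose arrays exceeded the whole low-dose range. Both means lay below the median of all values, 4.14.

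Prkca (chromosome 11, 107933387 to 108343888) encodes protein kinase C alpha. Its lowest, median and highest values after recovery were 8.46, 8.58 and 8.73 in controls, 8.41, 8.74 and 9.15 in low-dose mice and 8.40, 8.78 and 9.03 in high-dose mice. After exposure, they were 8.29, 8.39 and 8.64 in controls, 8.17, 8.34 and 8.59 in low-dose mice and 8.27, 8.46 and 8.84 in high-dose mice. The ranges of all 6 groups overlapped, and the 3 recovery groups had the higher means. High-dose mice after exposure were 0.12 ± 0.06 above low-dose mice, which did not pass (limma, adjusted p = 0.140, 95% interval 0.00 to 0.23). After quantile normalization this difference passed, at 0.16 (adjusted p = 0.0127), as it did after cyclic loess, at 0.19 (adjusted p = 0.00321), and with the mean over the 3 Prkca probe sets, at 0.23 (adjusted p = 0.000399).

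Prkcb (chromosome 7, 122289104 to 122634402) encodes protein kinase C beta. Its lowest, median and highest values after recovery were 8.43, 8.97 and 9.15 in controls, 8.56, 8.84 and 9.08 in low-dose mice and 8.38, 8.60 and 8.96 in high-dose mice. After exposure, they were 7.92, 8.36 and 8.91 in controls, 8.30, 8.68 and 8.95 in low-dose mice and 8.15, 8.27 and 8.92 in high-dose mice. The 7 control arrays after exposure spread most widely, and they covered nearly the whole range of both lead groups. Low-dose mice were 0.24 ± 0.10 above these controls, which did not pass (limma, adjusted p = 0.261) except with array weights, at 0.33 (adjusted p = 0.00331).

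Prkcd (chromosome 14, 30595353 to 30626414) encodes protein kinase C delta. Its lowest, median and highest values after recovery were 7.19, 7.44 and 7.48 in controls, 7.28, 7.44 and 7.64 in low-dose mice and 7.10, 7.29 and 7.57 in high-dose mice. After exposure, they were 6.91, 7.28 and 7.72 in controls, 6.98, 7.44 and 7.79 in low-dose mice and 6.84, 7.21 and 7.48 in high-dose mice. The high-dose group had the lowest mean at each collection, and its range overlapped with those of the other groups.

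The comparison of the doses after exposure asks whether the level of these genes follows the amount of lead in the water. Neither lead group differed from controls in any member, where 0.0238% of the 12589 genes were called for the high dose and 1.3% for the low dose. At an unadjusted p under 0.05, 1 and 2 of the 4 members would have been counted, where 9.48% and 12.4% of all genes passed. The 2 doses differed from each other in 2 of 4 members, both lower in the high-dose group, where 18.7% of all genes were called and 12.6% were called and lower. Of the called genes, 760 of 2349 were higher in the deposited values, against 1168 of 2351 with cyclic loess scaling and 1147 of 2604 with quantile scaling. The controls lay between the doses for Prkcb and Prkcd, so these genes showed no graded order from 0 to 50 µg/mL.

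Prkcb averaged 8.35 ± 0.22 in high-dose mice and 8.65 ± 0.18 in low-dose mice (SD, n = 15 each). It fell by 0.30 ± 0.08 (SE) on the log2 scale (limma, adjusted p = 0.00483), and 8 of 15 high-dose arrays lay below every low-dose array. Prkcd averaged 7.18 ± 0.18 in high-dose mice and 7.42 ± 0.24 in low-dose mice and fell by 0.24 ± 0.07 (adjusted p = 0.00868), with 3 of 15 arrays beyond the low-dose range. Leaving out any 1 array kept both calls. Atp2b1 differed by -0.04 ± 0.06 between the doses, with a 95% interval from -0.17 to 0.09.

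**Figure D2:**
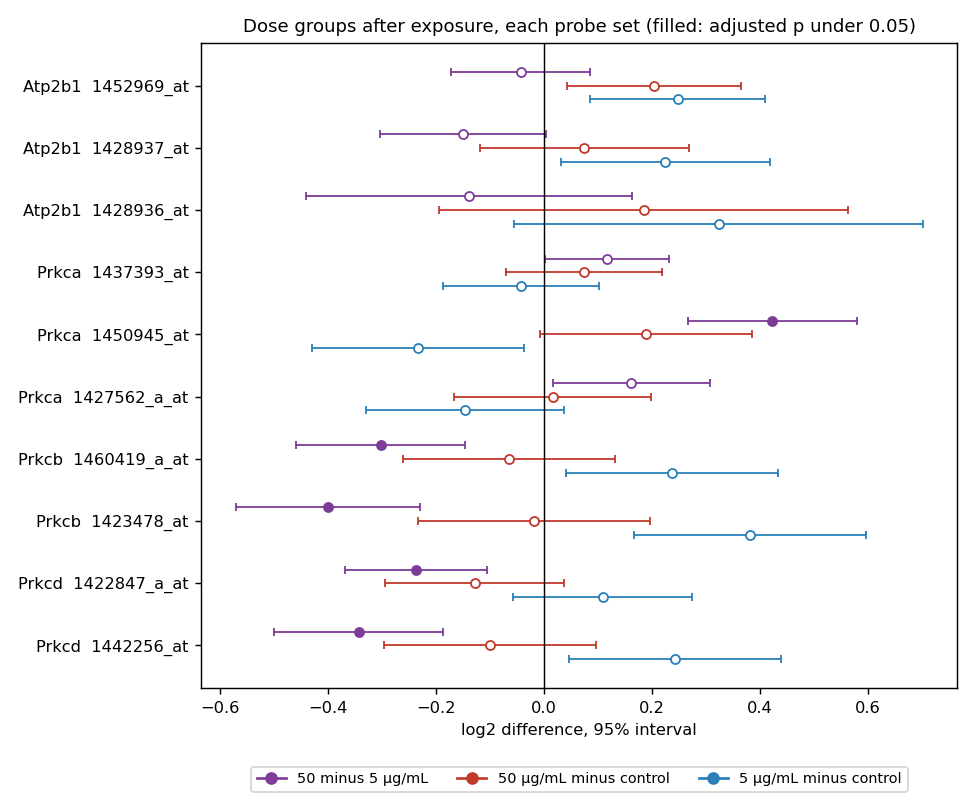
Log2 difference with its 95% interval (horizontal axis) between dose groups after exposure for each of the 10 member probe sets that passed the filter (rows). Purple is 50 minus 5 µg/mL, red 50 µg/mL minus control and blue 5 µg/mL minus control, and filled points have an adjusted p under 0.05. Both probe sets of Prkcb and both of Prkcd lie below 0 between 50 and 5 µg/mL, and Prkca 1450945_at lies above 0.

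The further probe sets of these genes were tested by themselves in a fit over all 21054 probe sets that passed the filter. In it, 5 of 10 member probe sets differed between the high and the low dose after exposure, 1 higher and 4 lower, where 16.4% of all probe sets were called, 5.49% higher and 10.9% lower. The second Prkcb probe set, 1423478_at, averaged 6.17 ± 0.26 in high-dose mice and 6.57 ± 0.27 in low-dose mice and fell by 0.40 ± 0.09 (limma, adjusted p = 0.000871). The second Prkcd probe set, 1442256_at, averaged 5.65 ± 0.15 in high-dose mice and 5.99 ± 0.16 in low-dose mice and fell by 0.34 ± 0.08 (adjusted p = 0.00173).

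Prkca 1450945_at was higher in high-dose mice after exposure, with a lowest, median and highest value of 6.66, 6.97 and 7.25, against 5.95, 6.60 and 6.82 in low-dose mice and 6.59, 6.79 and 7.01 in controls. In 14 of 15 high-dose arrays the value exceeded the whole low-dose range, a difference of 0.42 ± 0.08 (limma, adjusted p = 0.000111). The low-dose mice were 0.23 ± 0.10 below the controls (adjusted p = 0.301) and the high-dose mice 0.19 ± 0.10 above them (adjusted p = 0.554), and neither passed. The brightest Prkca probe set and 1427562_a_at had differences of the same sign between the doses, 0.12 and 0.16, that did not pass in this fit (adjusted p = 0.148 and 0.112).

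Markers of blood cell types moved with this comparison. Between the high and the low dose after exposure, 10 of 11 tested B cell markers were lower (median difference -0.749), 10 of 12 monocyte markers were lower (-0.326), 10 of 13 platelet markers were higher (0.298) and 5 of 16 erythroid markers were higher (0.213). Of all genes, 12.6% were called and lower and 6.04% called and higher. The mean of the B cell markers ranged from 7.67 to 8.65 in high-dose mice, against 8.29 to 9.22 in low-dose mice, and that of the monocyte markers from 7.78 to 8.27, against 8.12 to 8.64. The 18S ribosomal RNA probe sets averaged 7.79 ± 0.99 in high-dose mice and 7.00 ± 0.86 in low-dose mice, and the hybridisation controls 10.51 ± 0.40 and 10.09 ± 0.35 (SD, n = 15 each). With the means of neutrophil, B cell, T cell, monocyte, platelet and erythroid markers as covariates, the difference of Prkcb was 0.08 (limma, adjusted p = 0.478) and that of Prkcd 0.07 (adjusted p = 0.608), so that both calls were lost and their direction turned. For the further probe sets the same covariates left Prkca 1450945_at at 0.15 (adjusted p = 0.286), Prkcb 1423478_at at -0.07 (adjusted p = 0.738) and Prkcd 1442256_at at -0.24 (adjusted p = 0.246). With the hybridisation controls as a covariate, Prkcb was at -0.24 (adjusted p = 0.0638) and Prkcd at -0.18 (adjusted p = 0.119). With 18S as a covariate, Prkcb was at -0.26 (adjusted p = 0.0381) and Prkcd at -0.15 (adjusted p = 0.158), so that the call of Prkcd was lost.

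After recovery the question is whether differences between the doses remain once lead is withdrawn. The high dose differed from controls in 0 of 4 members, where 0.429% of all genes were called, and 2 members had an unadjusted p under 0.05, as did 10.9% of all genes. The low dose differed from controls in 0 members, and the high dose from the low dose in 0. In each of these 2 comparisons limma called 0% of the 12589 genes, and 0 and 1 of the members had an unadjusted p under 0.05, as did 2.34% and 14% of all genes. Prkcb averaged 8.63 ± 0.18 in high-dose mice (n = 13) and 8.85 ± 0.18 in low-dose mice (n = 15), a difference of -0.22 ± 0.08 (adjusted p = 0.263) with a 95% interval from -0.38 to -0.05. For Prkcd the difference was -0.13 ± 0.07 (adjusted p = 0.378). The interaction terms called 0 of 4 members at either dose, where 0.00794% (high dose) and 0.0238% (low dose) of all genes were called, and 1 member had an unadjusted p under 0.05 in each, as did 3.43% and 8.45% of all genes.

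Recovery against exposure called 2 of 4 members in high-dose mice, all higher (49.2% of all genes called, 29.4% called and higher). It called 3 in low-dose mice, all higher (44.1% and 26.2%), and 2 in controls, all higher (36.1% and 22.5%). After quantile normalization, 3206 of 6686 called genes were higher in the high-dose mice, 2867 of 5704 in the low-dose mice and 2497 of 4993 in the controls, against 3695 of 6189, 3301 of 5552 and 2834 of 4544 in the deposited values. The controls, which drank no lead, differed between the collections too, so time, collection and withdrawal of lead cannot be told apart within the lead groups.

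Atp2b1 was higher by 0.21 ± 0.06 in low-dose mice (limma, adjusted p = 0.00632) and by 0.54 ± 0.09 in controls (adjusted p = 7.77e-06), where 6 of 7 recovery arrays lay above every exposure array. In high-dose mice it differed by 0.13 ± 0.07 and did not pass (adjusted p = 0.0934). Leaving out high-dose array 12 of the exposure collection brought that difference to 0.15 (adjusted p = 0.0489). It also passed with the mean over the 3 probe sets, at 0.35 (adjusted p = 6.75e-05). So it did with the 3′ minus 5′ signal of control transcripts as covariates, at 0.24 (adjusted p = 0.0105). Over 16 alternative settings the high-dose difference ran from -0.13 to 0.35, and in 1 of them it changed sign with no call.

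Prkca by its brightest probe set was higher by 0.23 ± 0.06 in high-dose mice (limma, adjusted p = 0.000998). In low-dose mice it was higher by 0.33 ± 0.06 (adjusted p = 3.83e-06), and 11 of 15 recovery arrays lay above every exposure array. In controls the difference was 0.18 ± 0.08 (adjusted p = 0.0901), and it passed without control array 3 of the exposure collection, at 0.21 (adjusted p = 0.0435). The further Prkca probe sets averaged lower after recovery in each dose group, as given below.

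Prkcb was higher by 0.28 ± 0.08 in high-dose mice (limma, adjusted p = 0.00319), by 0.19 ± 0.08 in low-dose mice (adjusted p = 0.0386) and by 0.44 ± 0.11 in controls (adjusted p = 0.00179). With 18S as a covariate the high-dose call was lost, at 0.21 (adjusted p = 0.0742). The low-dose call was lost on leaving out any of 11 of its arrays (adjusted p up to 0.0795), without the 4 arrays of wide spread (adjusted p = 0.0670), after cyclic loess (0.0863), with 18S as a covariate (0.116) and with no filter on dim signal (0.0506). Prkcd by its brightest probe set differed by 0.12 ± 0.07, 0.01 ± 0.07 and 0.08 ± 0.10 in high-dose, low-dose and control mice, and none of these passed (adjusted p = 0.140, 0.889 and 0.514). The mean over both Prkcd probe sets passed in all 3, at 0.47, 0.32 and 0.48 (adjusted p = 1.57e-10, 9.24e-07 and 2.03e-06).

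**Figure D3:**
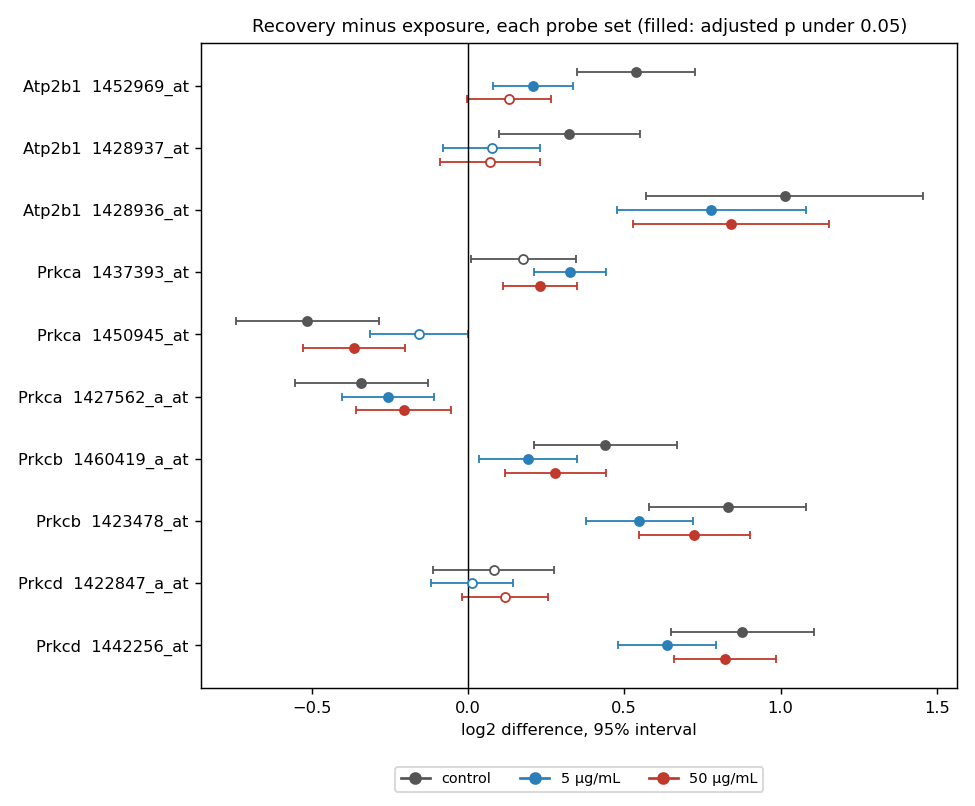
Log2 difference with its 95% interval (horizontal axis) between recovery and exposure in controls (grey), low-dose mice (blue) and high-dose mice (red), for each of the 10 member probe sets that passed the filter (rows). Filled points have an adjusted p under 0.05. The brightest Prkca probe set lies above 0 and the other Prkca probe sets lie below 0 in all 3 dose groups.

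Probe sets of the same gene did not move alike between the collections. In the fit of all probe sets, 7 of 10 member probe sets were called in high-dose mice (49.9% of all probe sets), 7 in low-dose mice (45.3%) and 8 in controls (36.7%). Against the brightest Prkca probe set, 1450945_at was lower after recovery by 0.36 ± 0.08 in high-dose mice (limma, adjusted p = 0.000144) and by 0.51 ± 0.12 in controls (adjusted p = 0.000285). In the controls its values were 5.98 to 6.46 after recovery and 6.59 to 7.01 after exposure, with no overlap. The same held for 6.21% of the 12589 genes by their brightest probe sets. That share over all probe sets was not counted. In low-dose mice the difference was -0.16 ± 0.08 (adjusted p = 0.0964). The dimmer 1427562_a_at was lower by 0.20 ± 0.08, 0.26 ± 0.07 and 0.34 ± 0.11 in high-dose, low-dose and control mice (adjusted p = 0.0208, 0.00302 and 0.00936). The mean over the 3 Prkca probe sets therefore turned the gene's direction. The difference became -0.11 in high-dose mice, -0.03 in low-dose mice and -0.23 in controls (limma, adjusted p = 0.0526, 0.643 and 0.00887). The control difference thus passed as lower after recovery. The high-dose difference of 1427562_a_at missed the threshold without the 4 arrays of wide spread (adjusted p = 0.0527), and the low-dose one of 1450945_at passed without them (adjusted p = 0.0284).

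**Figure D4:**
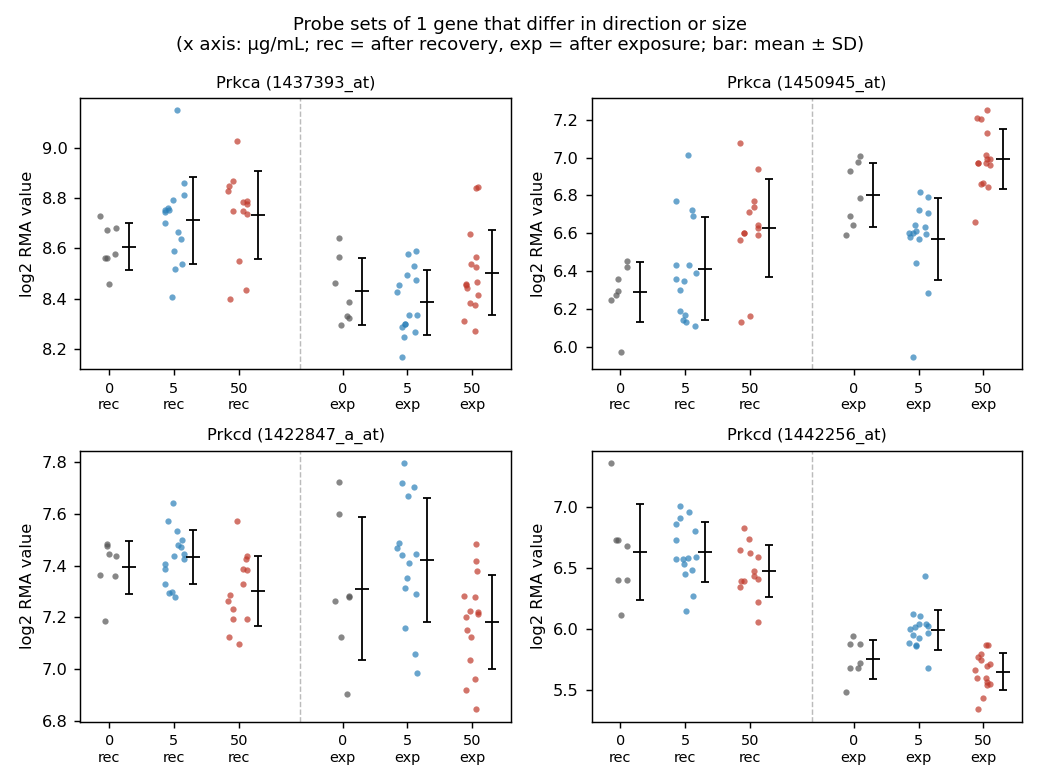
Log2 values (vertical axes) of 2 Prkca and 2 Prkcd probe sets in the 72 arrays by dose (µg/mL) and collection, recovery left and exposure right of the dashed line, with means ± SD. Prkca 1437393_at averages higher after recovery and 1450945_at lower, while Prkcd 1422847_a_at differs little and 1442256_at lies higher after recovery in all 3 dose groups.

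Prkcd 1442256_at was higher after recovery where the brightest Prkcd probe set was not called. Its lowest, median and highest values after recovery were 6.11, 6.68 and 7.35 in controls, 6.15, 6.58 and 7.00 in low-dose mice and 6.05, 6.43 and 6.83 in high-dose mice. After exposure they were 5.48, 5.72 and 5.94 in controls, 5.68, 6.0 and 6.43 in low-dose mice and 5.34, 5.66 and 5.87 in high-dose mice. The 2 collections did not overlap in high-dose mice, as for 1.66% of the 12589 genes by their brightest probe sets, nor in controls (6.21%). The differences were 0.82 ± 0.08, 0.64 ± 0.08 and 0.88 ± 0.12 in high-dose, low-dose and control mice (limma, adjusted p = 8.86e-13, 8.28e-10 and 1.68e-08).

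The second Prkcb probe set, 1423478_at, was higher after recovery by 0.72 ± 0.09, 0.55 ± 0.09 and 0.83 ± 0.13 in high-dose, low-dose and control mice (limma, adjusted p = 5.18e-10, 2.98e-07 and 4.08e-07). In the controls it lay at 6.69 to 7.32 after recovery and 5.94 to 6.62 after exposure. These did not overlap, as for 6.21% of the 12589 genes by their brightest probe sets. The 3 Atp2b1 probe sets name the same source sequence and still differed in size. Atp2b1 1428936_at was higher by 0.84 ± 0.16, 0.78 ± 0.15 and 1.01 ± 0.22 in high-dose, low-dose and control mice (adjusted p = 8.07e-06, 2.01e-05 and 0.000217). Atp2b1 1428937_at was called in controls, at 0.32 ± 0.11 (adjusted p = 0.0196), and differed by 0.07 ± 0.08 and 0.08 ± 0.08 in high-dose and low-dose mice. Which transcripts each probe set reads was not examined.

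Cell markers and signs of RNA quality also moved between the collections. B cell markers were higher after recovery for 11, 10 and 11 of 11 genes in high-dose, low-dose and control mice, with median differences of 1.03, 0.653 and 1.07. Monocyte markers were higher for 8, 3 and 9 of 12, and erythroid markers were lower for 13, 12 and 11 of 16. Of all genes, 29.4, 26.2 and 22.5% were called and higher in these groups, and 19.8, 17.9 and 13.6% called and lower. The count of higher monocyte markers in low-dose mice was thus near the share over all genes. The median of each of these 3 lists kept its sign after quantile normalization, median centring and cyclic loess. The excess of 3′ over 5′ signal of the Gapdh control probe sets was 0.845, 0.925 and 0.909 after recovery in high-dose, low-dose and control mice, against 0.564, 0.534 and 0.542 after exposure. With the 6 marker means as covariates, Prkcb was lower after recovery by 0.24 in high-dose mice (limma, adjusted p = 0.00169), and Prkca differed by 0.02 in high-dose and 0.10 in low-dose mice (adjusted p = 0.806 and 0.0995). Under the same covariates Atp2b1 differed by 0.08 in low-dose mice and 0.24 in controls (adjusted p = 0.415 and 0.102). The brightest Prkcd probe set was then lower after recovery by 0.20 in high-dose mice and 0.28 in controls (limma, adjusted p = 0.0194 and 0.022). The further probe sets of Prkcb and Prkcd went the other way. The second Prkcb probe set, 1423478_at, was still higher by 0.34, 0.41 and 0.51 in high-dose, low-dose and control mice (adjusted p = 0.00357, 7.75e-05 and 0.00374), and Prkcd 1442256_at by 0.60, 0.45 and 0.70 (adjusted p = 3.27e-05, 0.000269 and 0.00108). Prkca 1450945_at was still lower by 0.30 in high-dose mice (adjusted p = 0.00136) and was -0.23 in controls (adjusted p = 0.11).

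Of 10 pairs of the 5 genes, 7 correlated by r, 5 of them positively and 2 negatively, after the group means were subtracted (72 arrays, permutation of arrays within groups, 2-sided, Benjamini-Hochberg adjusted over 10 pairs). The dim Atp2b4 had r = -0.388 and rho = -0.428 with Prkcb, and r = -0.38 and rho = -0.4 with Prkcd (adjusted permutation p of r = 0.00282 each). Without the 2 arrays farthest on the x axis these r were -0.446 and -0.432. Prkcb and Prkcd had r = 0.622 and rho = 0.606, Atp2b1 and Prkcb r = 0.579 and rho = 0.499, and Prkca and Prkcb r = 0.554 and rho = 0.583. The permutation p of r was 1e-05 for each of these 3 positive pairs, the smallest that 100000 resamples can give (adjusted 3.33e-05), and without the 2 arrays farthest on the x axis r was 0.629, 0.573 and 0.563. After quantile normalization r of these 3 pairs was 0.29, 0.164 and 0.203, and 0 of the 10 pairs passed, so these correlations depend on the scaling of the arrays.

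Against the marker means, 36 of 50 relations passed in the deposited values. Prkcb went with the B cell markers at r = 0.788 and rho = 0.708, Prkcd with the monocyte markers at r = 0.733 and rho = 0.744, and Prkca with the platelet markers at r = 0.576 and rho = 0.443 (permutation p of r = 1e-05 each, adjusted 4.17e-05 over 50 relations). Without the 2 farthest arrays r was 0.743, 0.711 and 0.462. After quantile normalization r was 0.736, 0.553 and 0.638. Atp2b1 went with the monocyte markers at r = 0.635 and rho = 0.64 (permutation p of r = 1e-05), and at r = 0.345 after quantile normalization. These relations were not particular to 1 list. Prkca had r = -0.584 and Prkcb -0.486 with erythroid markers. Prkcb also had 0.669 with monocyte and 0.616 with T cell markers, and Prkcd 0.592 with B cell markers. After quantile normalization these were -0.417, -0.572, 0.405, 0.267 and 0.368. With the facial skin, muscle and salivary gland markers, Prkcb had r = -0.591 and Prkcd -0.593 (-0.383 and -0.308 after quantile normalization).

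**Figure D5:**
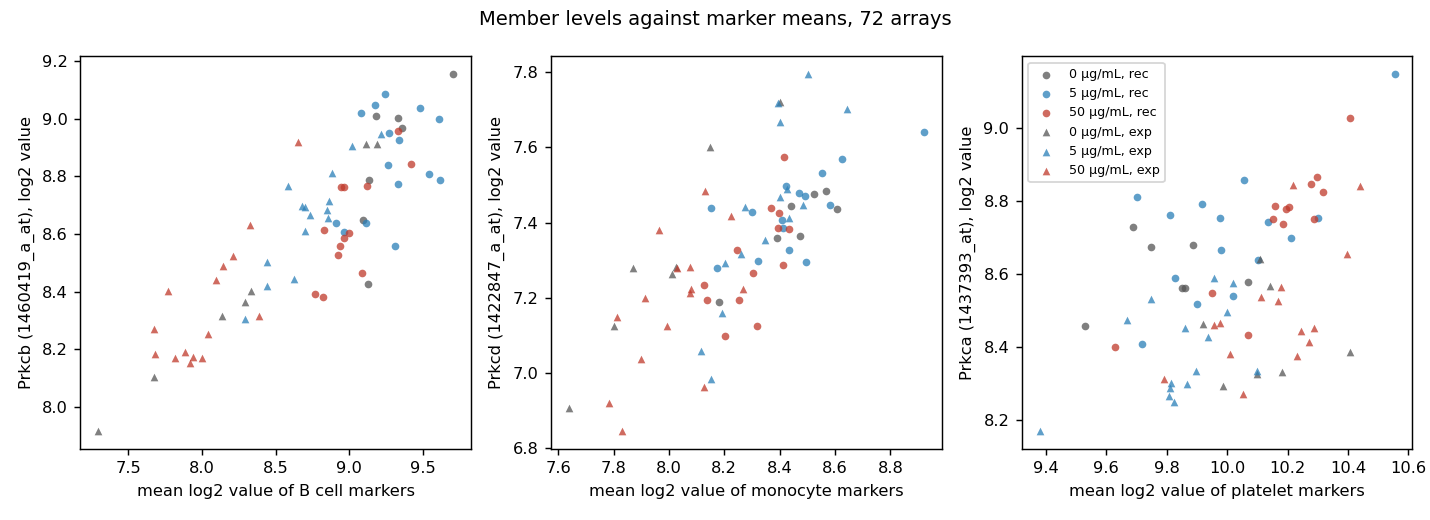
Log2 value of Prkcb, Prkcd and Prkca (vertical axes) against the mean log2 value of B cell, monocyte and platelet markers (horizontal axes) in the 72 arrays, with circles for recovery, triangles for exposure and colours for dose. Within groups, r was 0.788, 0.733 and 0.576 in these panels.

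The genes most like each member within groups were ranked by Pearson's r over the 72 arrays, as a description. They were Fh1, St6gal1 and Sh3bp5 for Prkcb (r = 0.89, 0.886 and 0.885), Polg2, Rabep1 and Acot9 for Atp2b1 (0.78, 0.747 and 0.739), Norad, Plekha2 and Ncoa1 for Prkca (0.792, 0.782 and 0.756), and Ier5, Nadk and Rassf3 for Prkcd (0.801, 0.784 and 0.777). After quantile normalization these values were between 0.436 (Acot9) and 0.785 (St6gal1).

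Further genes of calcium signalling were taken from 5 lists of 98 genes, of which 85 were tested: pumps and exchangers, channels and their sensors, calmodulin effectors, relatives and upstream genes of protein kinase C, and other calcium-binding proteins. Against controls after exposure, 0 of 85 were called at the high dose by limma (2 at an unadjusted p under 0.05). At the low dose, 1 was higher and 2 were lower, or 3.53% against 1.3% of all genes. These were Ryr1, a release channel of the endoplasmic reticulum (0.42 ± 0.12, limma, adjusted p = 0.0410), Trpc1, a cation channel (-0.50 ± 0.13, adjusted p = 0.0259), and P2rx1, an ATP-gated channel of platelets (-0.36 ± 0.10, adjusted p = 0.0497). Ryr1 was dim, with a mean of 4.47 in low-dose mice and 4.05 in controls, where the median of all values was 4.14.

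Between the high and the low dose after exposure, 7 of 85 were higher and 15 lower, or 25.9% against 18.7% of all genes, with a median difference of -0.0823 against -0.0306. The split was 11 higher and 11 lower after cyclic loess and 10 and 16 after quantile normalization. Trpc1 was higher by 0.61 ± 0.10 (limma, adjusted p = 1.14e-05), Slc24a3, a sodium-calcium-potassium exchanger, by 0.44 ± 0.08 (adjusted p = 0.00014) and P2rx1 by 0.37 ± 0.08 (adjusted p = 0.000938). The dim Ryr1 fell by 0.44 ± 0.09 (adjusted p = 0.000553), to a high-dose mean of 4.03, below the median of all values, 4.14. Of the 22 calmodulin effectors, 0 were higher and 5 were lower (12.6% of all genes were called and lower), led by Camk1d, a calmodulin-dependent kinase, which fell by 0.29 ± 0.07 (adjusted p = 0.00197). Plcg2, the phospholipase that makes diacylglycerol below the B cell receptor, fell by 0.33 ± 0.08 (adjusted p = 0.00288), and the calcium-binding proteins Anxa4 and S100a6 fell by 0.41 ± 0.08 and 0.45 ± 0.11 (adjusted p = 0.000271 and 0.00349). After recovery, P2rx1 was higher at the high dose than in controls (0.41 ± 0.10, adjusted p = 0.0444). The mean of 13 platelet markers was then 10.16 ± 0.20 (SD) at the high dose and 9.80 ± 0.17 in controls. After exposure, where P2rx1 was lower at the low dose than in controls, that mean was 9.85 ± 0.17 and 10.12 ± 0.16. The part of platelet markers in the P2rx1 differences was not tested. No other list gene was called between dose groups after recovery, although 12 genes (high dose against controls), 3 (low dose against controls) and 16 (high against low dose) of 85 had an unadjusted p under 0.05, where 10.9, 2.34 and 14% of all genes did.

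Between the collections, 36 of these 85 genes were higher and 11 lower after recovery in high-dose mice (55.3% against 49.2% of all genes), 35 and 10 in low-dose mice (52.9% against 44.1%), and 26 and 7 in controls (38.8% against 36.1%). After cyclic loess the counts were 31 and 19, 29 and 15, and 22 and 12. Of the 22 calmodulin effectors, 13, 10 and 10 were higher and 2, 2 and 1 lower in high-dose, low-dose and control mice, where 29.4, 26.2 and 22.5% of all genes were called and higher. Plcg2 was higher by 0.83 ± 0.08, 0.66 ± 0.08 and 0.96 ± 0.12 (limma, adjusted p = 1.28e-12, 5.92e-10 and 3.57e-09). Camkk2, the kinase that activates calmodulin-dependent kinases, was higher by 0.57 ± 0.08, 0.67 ± 0.08 and 0.64 ± 0.12 (adjusted p = 8.33e-08, 7.77e-10 and 2.06e-05). Prkd3, a kinase downstream of protein kinase C, was higher by 0.50 ± 0.07, 0.41 ± 0.06 and 0.64 ± 0.09 (adjusted p = 4.84e-09, 2.78e-07 and 3e-07).

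Of the other genes with the smallest p-values in a group, values are given for the groups in which they ranked among the first 8. Dgkz, a diacylglycerol kinase, was higher by 0.62 ± 0.09 in high-dose and 0.60 ± 0.09 in low-dose mice (limma, adjusted p = 2.7e-08 and 4.66e-08). Anxa6, a calcium-dependent membrane-binding protein, was higher by 0.58 ± 0.08 and 0.52 ± 0.08 (adjusted p = 3.07e-08 and 2.64e-07). Pde1b, a calmodulin-dependent phosphodiesterase, was higher by 0.63 ± 0.08 in high-dose mice and 0.86 ± 0.11 in controls (adjusted p = 2.16e-09 and 2.91e-08). Itpr2, a receptor for inositol trisphosphate, and Atp2a3, a calcium pump of the endoplasmic reticulum, were higher by 0.57 ± 0.08 and 0.46 ± 0.07 in low-dose mice (adjusted p = 1.02e-08 and 4.09e-08). In controls, Trpc1 fell by 0.86 ± 0.15 and Plcb1, a phospholipase C, by 0.72 ± 0.13 (adjusted p = 5.68e-06 and 1.46e-05). The marker shifts given above accompanied these counts too, and their part in them was not tested.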

How the data were processed

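Arrays of oligonucleotide probe sets measured transcripts in whole blood. Each value is a log2 level that the authors obtained by robust multi-array averaging (RMA), as named in the submitters' processing notes; the version of RMA is not given in the sources used here. Probe sets were named from the platform's annotation table, and groups from the titles. Probe sets above the median of all values, 4.14, in at least 7 arrays entered the tests. The model of 6 group means used all 72 arrays (limma 3.58.1, R 4.3.3, 66 residual degrees of freedom), with Benjamini-Hochberg adjustment over 12589 genes for each of 11 comparisons. Values of groups are means ± SD and differences are ± SE. Further probe sets were tested in a second fit over 21054 probe sets. Arrays were called wide in spread when the interquartile range of their relative log expression lay over 3 median absolute deviations above the median. Beyond that, precision is limited by the number of arrays. Correlations used numpy 2.4.6 and 100000 permutations within groups. The scripts were tested on simulated data. All 7 members are named. From the 5 calcium lists, up to 8 called genes with the smallest p per comparison are named, and for likeness the 3 genes with the highest r. The members and lists were chosen with earlier results of these data known. The alternatives were other scalings, filters and probe set choices, array weights, covariates (cell marker means, 18S, hybridisation controls, 3′ minus 5′ signal), replicate blocks, and leaving out each array. Alternatives for further probe sets and for list counts were chosen after seeing the data.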

Additional observations from a re-analysis of the deposited data

Results flagged for a closer look

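For Prkcd, array 4 of the recovery controls had a log2 value of 7.19 by the brightest probe set, the lowest of the 7 recovery controls by a gap that passed Dixon's criterion. The other 6 lay up to 7.48. Of 24 combinations of control group and probe set examined, 1 was found, and chance gives about 1 in 20.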

How the results depend on the processing

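Of 704 values of single members under other settings, 637 kept their direction and their side of the threshold, 12 lost a call, 18 gained one, 10 turned with a call on either side and 27 changed sign with no call on either side. With cell marker means as covariates, the difference between the high and the low dose after exposure became 0.0816 for Prkcb and 0.0676 for Prkcd. Recovery minus exposure became -0.24 (Prkcb) and -0.20 (Prkcd) in high-dose mice, -0.11 (Prkcb) in low-dose mice, and -0.0908 (Prkcb) and -0.28 (Prkcd) in controls. Of these, the high-dose values and that of Prkcd in controls passed the threshold. With the mean over probe sets, Prkca became -0.11, -0.0288 and -0.23 in high-dose, low-dose and control mice. Of these, the control value passed the threshold (limma, adjusted p = 0.00887). The number of members called for the low dose against controls after exposure became 1 (quantile), 1 (cyclic loess) and 2 (array weights), and for the high dose 1 (cyclic loess) and 1 (cell markers). High against low dose after exposure gave 0 (hybridisation controls), 1 (18S) and 0 (cell markers). Recovery against exposure gave 1 in high-dose mice (18S), 0 in low-dose mice (cell markers), and 4 (mean over probe sets) and 1 (cell markers) in controls. Array weights gave 1 and 2 members for the high-dose and low-dose interaction. Correlated pairs were 0 after quantile and 0 after cyclic loess normalization, against 7 in the deposited values. The causes were not tested.

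Leaving out each array in turn gave 0 to 1 members for the low dose against controls after exposure, 2 to 3 for recovery against exposure in each dose group, 2 to 2 for high against low dose after exposure, and 0 to 0 for the other comparisons. For pairs of arrays with the same dose and number, the median correlation over genes was -0.00126, 0.0737 and 0.0362 in high-dose, low-dose and control mice. For pairs with other numbers it was 0.000553, 0.00927 and -0.0308. The correlation of same-number pairs ran from -0.458 to 0.477, -0.302 to 0.507 and -0.424 to 0.255. It exceeded 0.1 for 4 of 13, 7 of 15 and 3 of 7. Of the recovery arrays, 0, 3 and 1 correlated best with their own number. The share of pairs with other numbers above 0.1 was not counted, so these counts do not tell whether the numbers link mice. With a replicate block, fixed or random (correlation 0.0212), the count of called members stayed at 2 for high against low dose after exposure and at 2, 3 and 2 for recovery against exposure in high-dose, low-dose and control mice.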
